A study of Mus musculus with 48 samples.

Results

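The genes described here are 10 members of calcium/calmodulin signalling: the CaMKII subunit genes Camk2a, Camk2b, Camk2d and Camk2g, the kinase gene Camk4, the CaM kinase kinase genes Camkk1 and Camkk2, and the calcineurin genes Ppp3ca, Ppp3cb and Ppp3r1. They were chosen by symbol, matched from the Ensembl identifiers of the RNA count files, and are 10 of 48869 identifiers. All 10 passed the filter on low counts in both kinds of RNA. The mice were C57BL/6J adults of 4 to 6 months, either Setd1b cKO or Control, and the tissue was the hippocampal CA region. Setd1b codes for a methyltransferase of histone H3 lysine 4. RNA came from CA neurons (3 libraries labelled cKO and 3 control) and from whole CA tissue (6 and 6). Histone marks were profiled by chromatin immunoprecipitation (ChIP) in sorted neuronal nuclei: H3K4me3 and H3K4me1 (4 libraries of each genotype), H3K27ac (4 labelled cKO, 3 control) and H3K9ac (3 labelled cKO, 4 control). The labels do not say how the neuron RNA was isolated. The list of H3K27ac control 1 carries the number 2 in its deposited name, and the label's number was used. The labels give neither the Cre driver, nor the alleles of the control mice, nor how many animals gave a library, and p-values measure the spread between libraries, which may be technical. As far as the study is known, the deletion was postnatal and used Cre under the promoter of Camk2a, itself one of the 10 genes.

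Calcium that enters a neuron binds calmodulin, and calcium-loaded calmodulin switches on kinases and a phosphatase. CaMKII is a ring of subunits that phosphorylates itself and so stays active after calcium falls. Its alpha and beta subunits are abundant in excitatory forebrain neurons and act in long-term potentiation. Camk4 encodes a largely nuclear kinase that phosphorylates the transcription factor CREB, and the CaM kinase kinases activate it. Calcineurin is the opposing phosphatase, with a catalytic A subunit (Ppp3ca or Ppp3cb in brain) and the calcium-binding B subunit of Ppp3r1, and it acts in long-term depression. H3K4me3 marks the starts of genes in use, H3K27ac and H3K9ac mark active starts and enhancers, and H3K4me1 spreads around them.

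The promoters of the regulatory calcineurin gene and of a catalytic gene are shown. They were chosen because H3K4me3 coverage within 5 kb of the gene start was called lower at the first and not called at the second. Within 2 kb neither gene was called. The stretches are the 250 bases before the gene start from RefSeq (GRCm38.p6), 5′ to 3′ along the gene. Each CpG dinucleotide (the letters CG, the same on both strands) is in capitals.
Ppp3r1 (plus strand, chr11:17159048-17159297): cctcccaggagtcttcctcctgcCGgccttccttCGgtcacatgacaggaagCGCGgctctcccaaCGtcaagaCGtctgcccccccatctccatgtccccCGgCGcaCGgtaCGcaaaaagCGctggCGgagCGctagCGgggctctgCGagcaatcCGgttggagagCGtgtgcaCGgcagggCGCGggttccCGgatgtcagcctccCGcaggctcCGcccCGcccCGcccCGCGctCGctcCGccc
Ppp3cb (minus strand, chr14:20546574-20546823): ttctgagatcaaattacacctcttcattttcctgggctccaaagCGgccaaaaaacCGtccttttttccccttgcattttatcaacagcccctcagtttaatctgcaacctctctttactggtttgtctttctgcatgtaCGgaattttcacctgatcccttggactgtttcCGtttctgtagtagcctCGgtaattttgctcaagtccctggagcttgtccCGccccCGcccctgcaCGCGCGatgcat
The Ppp3r1 stretch held 29 CpG dinucleotides and 70.8% G or C, and 93.2% of 32851 promoters of that length held fewer. The Ppp3cb stretch held 10 and 48.4%, with fewer in 62.2% of promoters. The median promoter held 6, and 92.1% held at least 1. Of the 10 genes 6 were in the promoter table, and the others held 44 (Camk2b), 32 (Camkk2), 29 (Camkk1) and 23 (Camk2d). Camkk1, with as many CpG dinucleotides as Ppp3r1, was not called in H3K4me3 at its start. These counts are a description and say nothing of what binds there.

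In the same build Camk2b (ENSMUSG00000057897, chr11:5969629-6066357), Ppp3r1 (ENSMUSG00000033953, chr11:17159298-17200380) and Camkk1 (ENSMUSG00000020785, chr11:73016043-73042073) lie on chromosome 11. Camk2d (ENSMUSG00000053819, chr3:126595487-126846326) and Ppp3ca (ENSMUSG00000028161, chr3:136669714-136937727) lie on chromosome 3. Camkk2 (ENSMUSG00000029471) is at chr5:122718380-122779522. Ppp3cb (ENSMUSG00000021816, chr14:20499364-20546573) and Camk2g (ENSMUSG00000021820, chr14:20734873-20794157) are on chromosome 14. Camk2a (ENSMUSG00000024617) and Camk4 (ENSMUSG00000038128) are on chromosome 18.

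The depth of the neuron RNA libraries was 55.7 to 69.1 M counts and that of whole CA 14.9 to 20.1 M, and the least covered member, Camk2d, had 589 reads in its shallowest library. Levels are depth-scaled counts (CPM, with TMM factors). Setd1b (ENSMUSG00000038384) went against its label at the level of the whole gene: neuron libraries labelled cKO had 56.1, 57.4 and 66.3 CPM and controls 60.9, 45.6 and 44.0 CPM. In whole CA it was higher under the cKO label (log2 fold change 0.59, edgeR adjusted p = 0.00415). The labels do not say which part of the gene was deleted, so the gene count does not check the genotype, and directions below are those of the libraries labelled cKO. Summed oligodendrocyte markers were between 131 and 154 CPM in neuron libraries but between 3897 and 5886 CPM in the whole tissue. Summed markers of all neurons were lower in neuron RNA too, 3353 to 4232 CPM against 6707 to 8072 CPM. Mitochondrial genes took 0.00814 to 0.0144% of neuron counts and 3.41 to 7.05% of whole CA counts.

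In control libraries 5 members were lower and 3 higher in neuron RNA than in whole CA RNA. Of all 16859 genes tested 83.6% were called and 40.1% called lower, so 8 of 10 is near the background. Camk2a differed most, with 1323, 1037 and 1104 CPM in neuron controls and 4708 to 5417 CPM (median 4910) in the 6 whole CA controls. The groups lay far apart, with a log2 difference of −2.09 ± 0.09 (SE; edgeR adjusted p = 1.28e-12), which is 4.26-fold lower. The calcineurin genes were lower as well, with log2 differences of −1.68 ± 0.14 for Ppp3r1, −1.33 ± 0.13 for Ppp3cb and −1.16 ± 0.10 for Ppp3ca. Camk4 was lower (−0.73 ± 0.10). Camkk1 (0.57 ± 0.10), Camk2d (0.44 ± 0.12) and Camkk2 (0.40 ± 0.08) were higher. With whole CA controls 4 to 6 alone Camk2d was no longer called (0.36, adjusted p = 0.0532). Camk2b was not called (−0.15, 95% interval −0.32 to 0.02, adjusted p = 0.0881), nor was Camk2g (−0.04, −0.18 to 0.09), and with scaling by library size only both had positive values (0.01 and 0.12). Camk2b was called without neuron control 1 (−0.22, adjusted p = 0.0121). Beside these values, 5 of 6 markers of all neurons were called lower in neuron RNA, and their part was not tested. Mitochondrial genes took 0.00814 to 0.0128% of counts in neuron controls and 4.33 to 6.17% in whole CA controls. Whether nuclei or whole cells gave the neuron RNA was not tested. The material, its preparation and its sequencing cannot be told apart, and neither can fewer cells of a type and less RNA per cell. The lower values therefore do not show that CA neurons hold less of these RNAs than the tissue.

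**Figure D1:**
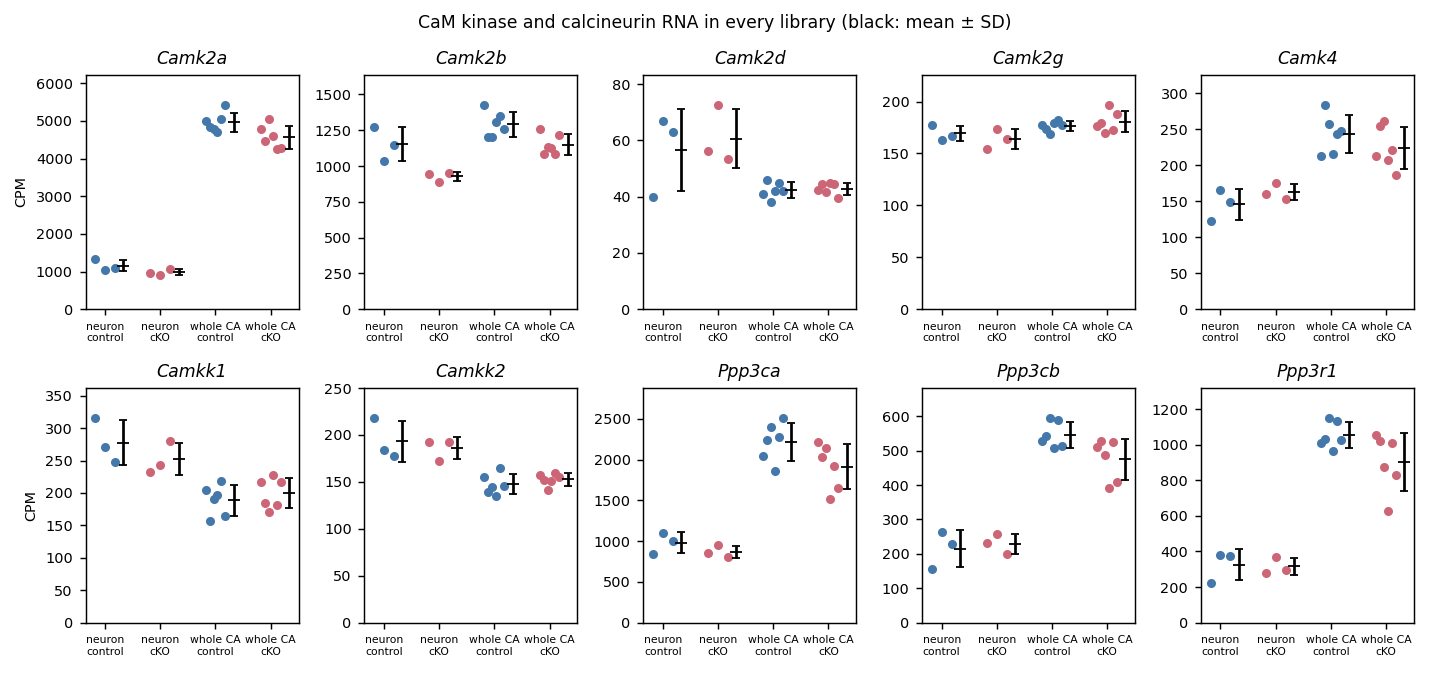
CPM of each gene in every RNA library (y axis from 0; points are libraries, black marks are mean ± SD), by material and genotype label. Camk2a lies between 4708 and 5417 CPM in whole CA controls and between 1037 and 1323 CPM in neuron controls, and the genotypes overlap for every gene except Camk2b in neuron RNA.

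Between genotypes edgeR, fitted without a replicate term, called no member in either kind of RNA. In neuron RNA 0 of 10 were called, against 2.75% of 19622 genes (2.0% lower), and in whole CA RNA 0 of 10, against 4.17% of 15362 (2.79% lower). At an unadjusted p under 0.05 there was 1 member in neuron RNA (17.2% of all genes, 9.05% lower) and 5 in whole CA RNA (15.7%, 8.52% lower), all lower under the cKO label. The median log2 fold change of the 10 was −0.06 for neurons and −0.13 for the whole tissue, beside 0.02 and −0.00 over all genes tested. The difference between the neuron and whole CA effects was called for 0 of 10 (0.16% of 17523 genes), with 0 at an unadjusted p under 0.05 (8.11% of all genes). DESeq2 called 1 member, Camk2b, in each kind of RNA and none for the difference. Its shares over all genes were 2.48% in neuron RNA (1.78% lower), 3.03% in whole CA (1.88% lower) and 0.233% for the difference.

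Camk2b, the beta subunit that ties CaMKII to actin, was at 945, 889 and 950 CPM in neuron libraries labelled cKO and at 1275, 1037 and 1144 CPM in controls. The groups did not overlap, as was so for 11.1% of all genes in that direction. The log2 fold change was −0.32 ± 0.11 (SE), with an edgeR adjusted p of 0.162 and a DESeq2 adjusted p of 0.0228. In whole CA it ran from 1083 to 1255 CPM (median 1130) under the cKO label and from 1205 to 1425 CPM (median 1284) in controls, with a small overlap. No member had every library labelled cKO below every control in whole CA, beside 1.86% of all genes. The Camk2b log2 fold change was −0.17 ± 0.06, with an edgeR adjusted p of 0.0959 and a DESeq2 adjusted p of 0.0486.

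Camk2a, the alpha subunit, was at 975, 921 and 1064 CPM in neuron libraries labelled cKO, beside 1323, 1037 and 1104 CPM in controls. The groups overlapped, with a log2 fold change of −0.24 ± 0.12 (edgeR adjusted p = 0.338), which was −0.14 without control 1. In whole CA it ran from 4255 to 5050 CPM (median 4525) against 4708 to 5417 CPM (median 4910), also overlapping, at −0.13 ± 0.05 (adjusted p = 0.238). Camk2g, the gamma subunit, had −0.06 in neurons (95% interval −0.25 to 0.13) and 0.03 in the whole tissue (−0.08 to 0.13). Camk2d, the delta subunit, had 0.08 (−0.34 to 0.51) and 0.01 (−0.12 to 0.14). Neuron control 1 was low for Camk2d, 40.03 CPM beside 67.0 and 63.0 CPM, and without it the neuron value was −0.12.

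The nuclear kinase Camk4 was at 160, 176 and 153 CPM in neuron libraries labelled cKO and at 123, 165 and 149 CPM in controls, a log2 fold change of 0.15 (−0.12 to 0.42). Leaving out 1 library moved it between 0.03 (without control 1) and 0.25 (without control 2). In whole CA it was −0.13 (−0.30 to 0.05), and from −0.18 to −0.08 with 1 library left out. Its activators were not called either: Camkk1 had −0.15 (−0.41 to 0.10) and 0.08 (−0.10 to 0.26), and Camkk2 had −0.07 (−0.29 to 0.16) and 0.04 (−0.08 to 0.16). The Camkk1 value in neurons was −0.06 without control 1. For these 3 genes the sign differed between the kinds of RNA, and the difference was not called (edgeR adjusted p from 0.628 to 0.777).

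The calcineurin genes had lower means under the cKO label in whole CA, without a call by edgeR in the fit without a replicate term. Ppp3ca, a catalytic subunit, ran from 1512 to 2211 CPM (median 1977) against 1859 to 2505 CPM (median 2256), a log2 fold change of −0.22 ± 0.09 (edgeR adjusted p = 0.228). Ppp3cb, the other catalytic subunit, ran from 391 to 528 CPM (median 499) against 507 to 594 CPM (median 536), at −0.21 ± 0.08 (adjusted p = 0.168). Ppp3r1, the regulatory subunit, ran from 627 to 1057 CPM (median 942) against 968 to 1149 CPM (median 1032), at −0.23 ± 0.10 (adjusted p = 0.254). All 3 overlapped, and libraries 4 and 6 labelled cKO were the lowest for each. In neuron RNA the values were −0.19 (−0.48 to 0.09) for Ppp3ca (−0.10 without control 2), 0.07 (−0.33 to 0.48) for Ppp3cb and −0.06 (−0.50 to 0.39) for Ppp3r1. Neuron control 1 stood apart, with 156 CPM of Ppp3cb beside 262 and 228 CPM, and 223 CPM of Ppp3r1 beside 378 and 375 CPM.

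**Figure D2:**
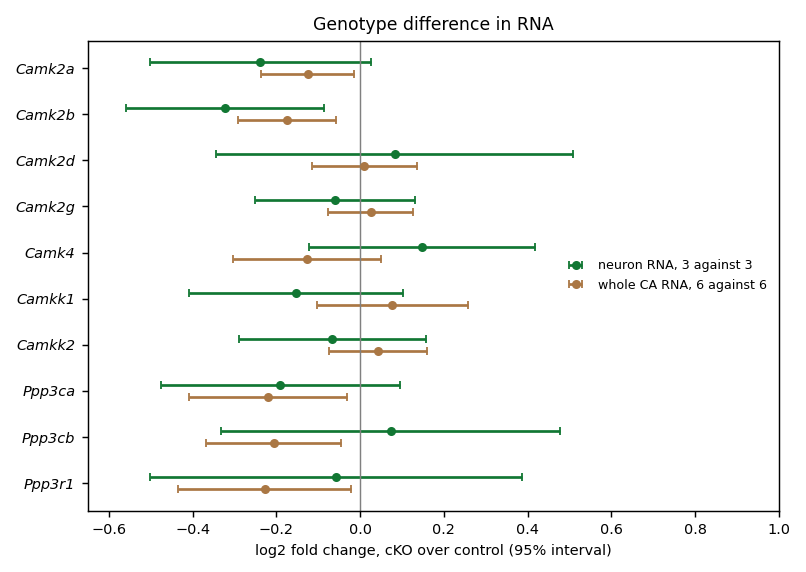
log2 fold change of each gene, libraries labelled cKO over control, with its 95% interval, in neuron RNA and whole CA RNA. Camk2b is at −0.32 and −0.17, and the intervals of Camk2d, Camk2g, Camk4, Camkk1 and Camkk2 include 0 in both.

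Of 39 other calcium/calmodulin genes, 2 of 39 tested fell in neuron RNA and 3 of 38 in whole CA RNA, beside the 2.0% and 2.79% of all genes called lower given above, and none was called higher. Pnck, a kinase related to CaMKI, fell in both. It was at 77.2, 76.7 and 73.2 CPM in neuron libraries labelled cKO and 112, 95.8 and 112 CPM in controls (log2 fold change −0.51, edgeR adjusted p = 0.015). That call was lost without cKO 1, cKO 2 or control 3. In whole CA it ran from 37.9 to 61.5 CPM against 63.6 to 74.5 CPM (−0.66, adjusted p = 2.37e-04). Nrgn, whose product neurogranin holds calmodulin at low calcium, fell in neuron RNA (−0.43, adjusted p = 0.0421), a call lost on leaving out any 1 of the 6 libraries (adjusted p from 0.0634 to 0.169). Pcp4, another calmodulin-binding protein gene, fell in whole CA (−0.74, adjusted p = 1.37e-04), as did Kalrn, an exchange factor and CaMKII substrate (−0.29, adjusted p = 0.00649). Some cell type markers moved with the labels as well. Of 6 pyramidal markers Neurod6 (−2.24 in neuron RNA, −1.78 in whole CA) and Wfs1 (−1.11 and −0.43) fell in both. Of the 6, 5 had negative values in neuron RNA and 3 in whole CA, where their median was 0.04. Of 5 dentate granule markers 4 fell in neuron RNA, Lct (−1.56), Dsp (−0.78), C1ql2 (−0.76) and Tdo2 (−0.70), and Lct (−1.86) and Dsp (−0.96) fell in whole CA. The calls of Dsp in both, C1ql2 and Tdo2 were lost on leaving out 1 of several libraries (lowest adjusted p among the lost calls 0.0512). Map2 of the 6 markers of all neurons fell in whole CA (−0.33), where 3 of the 6 had negative values. Markers of other cells fell in whole CA too: Aqp4 of 6 astrocyte markers (−0.38, adjusted p = 0.0122), Kdr of 5 endothelial markers (−0.40, adjusted p = 0.00415) and Cx3cr1 of 6 microglia markers (−0.22, adjusted p = 0.0434). All 6 astrocyte and all 6 microglia markers had negative values there, and of the 12 fits with 1 library left out the Cx3cr1 call held only without cKO 2. Kdr fell in neuron RNA as well (−0.51, adjusted p = 0.0411), a call lost without any 1 of the 6 libraries. Summed pyramidal markers ran from 1460 to 1720 CPM under the cKO label and 1670 to 2003 CPM in neuron controls. Summed astrocyte markers in neuron RNA ran the other way, from 416 to 430.2 CPM under the cKO label and 326 to 384 CPM in controls, without overlap and with 0 of 6 called. Summed microglia markers in whole CA ran from 232 to 259 CPM and 266 to 320.0 CPM. The part of these markers in the values above was not tested.

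H3K4me3 coverage fell at several of the genes. Coverage is the number of bases under merged peaks over the gene and 5 kb either side. This measure was added after the data were seen, because the promoter table lacks 4 of the genes. Of 10 genes 5 were called, all lower under the cKO label: Ppp3ca, Camk2b, Camk2a, Ppp3r1 and Camkk2. Of 26700 genes tested 20% were called, 18.6% lower and 1.38% higher. The median log2 change of the 10 was −0.37, beside −0.06 over all genes. That balance of directions depended on the scaling. With each library centred on its median, 22.9% were called, 12.3% lower and 10.7% higher, and the median over all genes was 0.07. The same 5 members were then called lower, with a median of −0.24 over the 10, and Camk2d was called higher (0.22, adjusted p = 0.036).

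Ppp3ca covered 18996, 19165, 21032 and 21736 bp in controls 1 to 4 and 4145, 7435, 5645 and 6592 bp in libraries 1 to 4 labelled cKO. The log2 change was −1.78 ± 0.17 (SE; limma adjusted p = 5.51e-04). Camk2b covered 15102, 16998, 16748 and 18821 bp in controls and 5518, 9810, 7821 and 8107 bp under the cKO label (−1.13 ± 0.17, adjusted p = 0.00333). Every control was above every library labelled cKO for both genes. Camk2a covered 20089 to 22311 bp in controls and 8593 to 11595 bp under the cKO label (−1.12 ± 0.09, adjusted p = 2.8e-04). Ppp3r1 covered 6484, 5937, 6900 and 7063 bp and 3145, 3718, 3393 and 3152 bp (−0.96 ± 0.08, adjusted p = 2.79e-04). Camkk2 covered 4231 to 4748 bp and 2837 to 3682 bp (−0.42 ± 0.09, adjusted p = 0.0166), a call lost with a flank of 10 kb (−0.32, adjusted p = 0.0702) and with peaks of a −log10 q of at least 5 (−0.22, adjusted p = 0.125). These did not overlap either, which with the cKO label lower was so for 23.7% of all genes.

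The other 5 genes were not called. Camkk1 covered 7240 to 7665 bp in controls and 5258 to 7440 bp under the cKO label (−0.32, 95% interval −0.57 to −0.06, adjusted p = 0.081). Without cKO 2 it was called (−0.43, adjusted p = 0.00261), as was Camk4 (−0.33, adjusted p = 0.0117, from −0.24 and 0.156 with all libraries). Camk2g had −0.19 (−0.49 to 0.12) and Camk2d 0.09 (−0.09 to 0.28) before centring. Ppp3cb covered 2281 to 2642 bp in controls and 2137 to 2492 bp under the cKO label (−0.07, −0.23 to 0.09). Whether the catalytic genes Ppp3ca and Ppp3cb differ in their change was not tested.

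**Figure D3:**
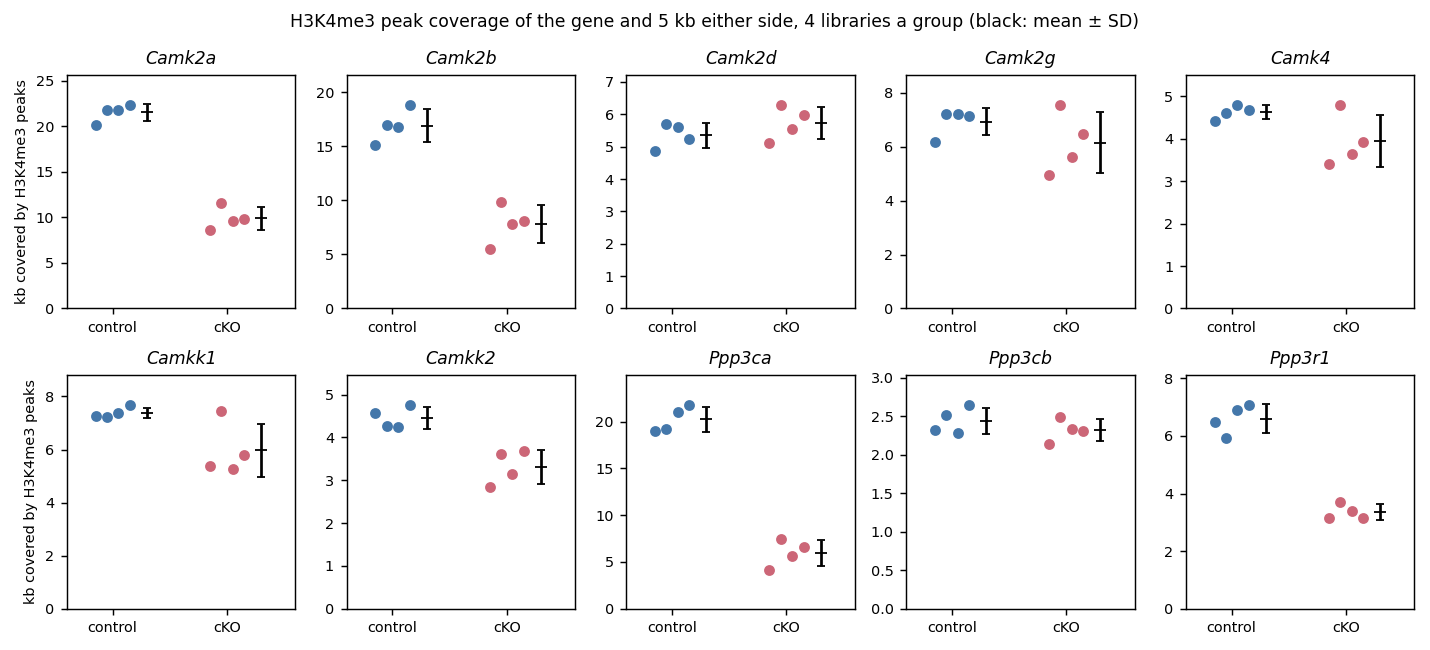
Kilobases covered by H3K4me3 peaks over each gene and 5 kb either side (y axis from 0; 4 libraries a group, black marks are mean ± SD). Camk2a, Camk2b, Ppp3ca, Ppp3r1 and Camkk2 do not overlap between control and cKO labels, and Ppp3cb does.

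The widest single peak in controls was 9632 ± 2971 bp (SD, n = 4) for Camk2a and 8643 ± 140 bp for Ppp3ca, at percentiles 99.8 and 99.6 of all genes. It was narrowest for Camkk2, at percentile 55.2, and Ppp3cb, at percentile 66.3. Under the cKO label the Camk2a and Ppp3ca peaks were 5713 ± 477 bp and 4008 ± 312 bp. Ppp3ca fell by 1.09 on the log2 scale (limma adjusted p = 3.85e-05). Camk2b went from 5147 ± 643 bp to 2570 ± 188 bp (−0.97, adjusted p = 5.86e-04) and Ppp3r1 from 4290 ± 457 bp to 2905 ± 206 bp (−0.54, adjusted p = 0.00555). Of 10 genes 4 were called, all lower, against 16.3% of all genes called and 15.5% called lower. With centred libraries Ppp3ca, Camk2b and Ppp3r1 were called lower, against 14.1% of all genes called, 9.0% lower and 5.12% higher. Camk2a, Camk2b, Camk2d, Camk4, Ppp3ca and Ppp3r1 did not overlap between genotypes, with the cKO label lower, as in 23.1% of all genes. Of these, Camk2d (−0.14, limma adjusted p = 0.0521) and Camk4 (−0.34, adjusted p = 0.08) were not called. The fourth gene called without centring was Camk2a (−0.70, adjusted p = 0.0434), which was not called after centring (−0.57, adjusted p = 0.0877). Its call was kept without control 4 (−0.51, adjusted p = 0.0088) and lost without any 1 of the other libraries (adjusted p from 0.0563 to 0.0945).

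Mean edges differed more between genotypes at the edge inside the gene than at the outer edge. The widest Camk2b peak began 117 ± 14 bp past the gene start in controls and 117 ± 10 bp past it under the cKO label, and ended at 5263 ± 630 bp and 2686 ± 193 bp. The widest Ppp3r1 peak began at −441 ± 460 bp and −625 ± 394 bp and ended at 3848 ± 46 bp and 2279 ± 271 bp. It began at −43 bp in controls 1 and 3 and −55 bp in cKO 2, where a separate peak lay upstream. For Ppp3ca, measured from the lower-coordinate end of the gene, the peak ran from −944 ± 122 bp to 7698 ± 55 bp in controls and from −730 ± 70 bp to 3277 ± 254 bp under the cKO label. For Camk2a, measured likewise, the far edge was at 8924 ± 3010 bp and 5083 ± 533 bp. These edges are a description, with no test.

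**Figure D4:**
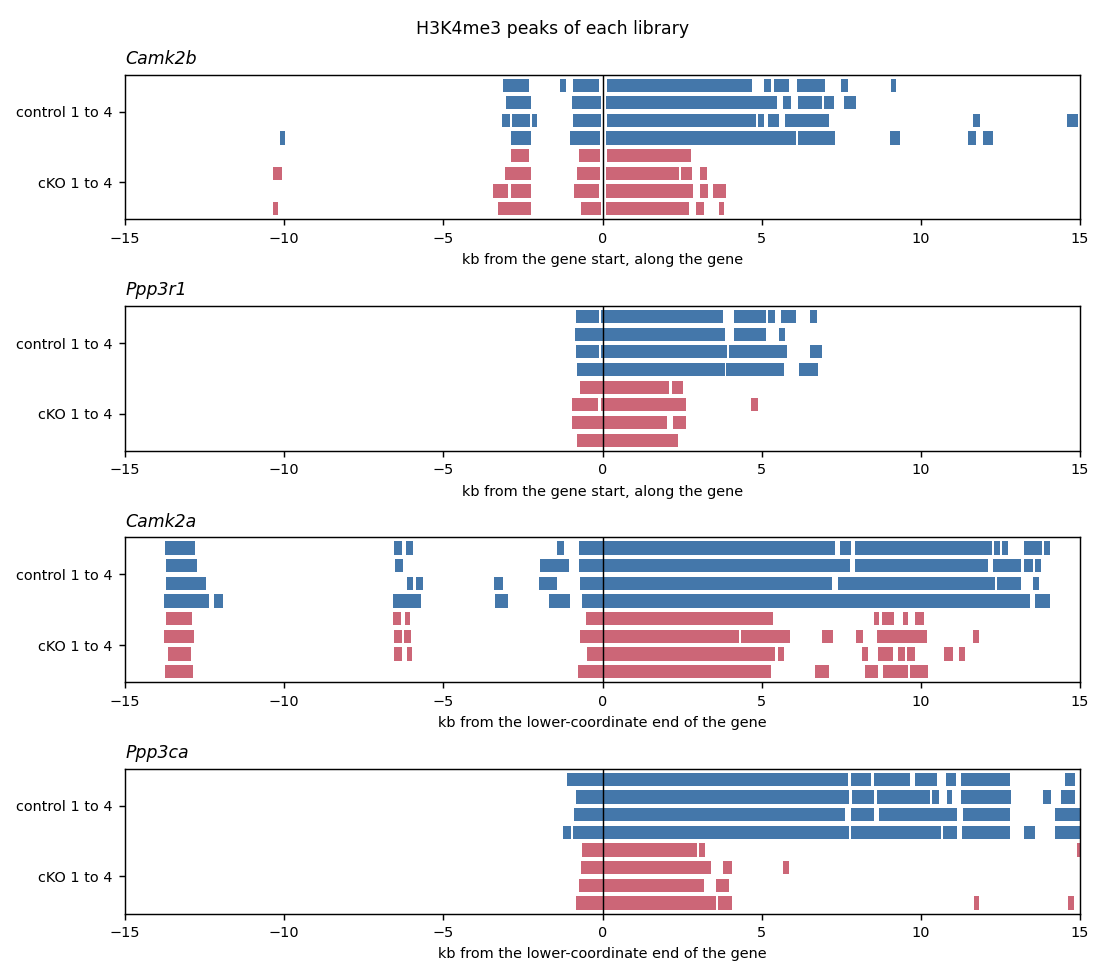
H3K4me3 peaks of each control and cKO-labelled library, drawn as bars along the distance in kb from the gene start (Camk2b, Ppp3r1) or from the lower-coordinate end of the gene (Camk2a, Ppp3ca). The far edge of the widest peak has a mean of 7698 bp in controls and 3277 bp under the cKO label for Ppp3ca, and 5263 and 2686 bp for Camk2b.

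Within 5 kb of the gene start 4 of 6 genes were called lower, against 28.8% of 19721 starts called and 27.4% called lower. With centred libraries 3 of 6 were called lower (Ppp3r1, Camk2b and Camkk2), against 29.7% of starts called, 16.1% lower and 13.6% higher. The centred Camkk2 value was at the threshold (−0.24, adjusted p = 0.04997). Ppp3r1 covered 5431, 5593, 5712 and 5769 bp in controls and 3145, 3718, 3393 and 3152 bp under the cKO label (log2 change −0.73 ± 0.06, limma adjusted p = 1.53e-04). Its groups did not overlap, as in 30.6% of all starts. Camk2b had −0.52 ± 0.09 (adjusted p = 0.00342), Camkk2 −0.38 ± 0.09 (0.0131) and Camk2d −0.14 ± 0.04 (0.0218). Camkk1 (−0.22, 0.0716) and Ppp3cb (−0.07, 0.482) were not called. Within 2 kb Ppp3r1 had 0.02 (adjusted p = 0.809) and Camk2d was not called (−0.07, 0.163). Camk2d was also at 0.00 after centring the libraries, and was no longer called without cKO 3, control 2 or control 3 (adjusted p from 0.0516 to 0.0645).

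Starts that were broad in controls were called lower more often, without centring: 4.37% under 2000 bp, 37.7% from 2000 to 4000 bp, 73.3% from 4000 to 6000 bp and 80.1% from 6000 bp. Camk2b and Camkk1 were in the broadest class, Ppp3r1 and Camkk2 in the next, and Camk2d and Ppp3cb in the one from 2000 bp. The classes use the same control libraries as the test. Over spans no such classes were made. Control coverage there was at percentile 99.8 of all genes for Camk2a, 99.7 for Ppp3ca, 99.6 for Camk2b, 93.8 for Ppp3r1 and 83.2 for Camkk2. For the genes not called it ran from percentile 55.9 (Ppp3cb) to 95.6 (Camkk1). The part of breadth in the calls of the members was not tested. H3K4me3 libraries held 24.4 to 27.8 M tags under the cKO label and 25.98 to 26.93 M in controls. Each genotype had 1 input library, of 31.3 M tags for cKO and 28.8 M for control, so input and genotype cannot be told apart.

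For the other marks limma called no member without centring. With centred libraries it called Camk2b higher in H3K4me1 at starts, against 9.33% of all starts called and 5.93% called higher. Over spans it then called Camk4 higher in H3K4me1 (0.35, adjusted p = 0.0372), against 9.37% of all genes called and 5.86% called higher. Without centring, 0 of 6 were called at gene starts for H3K4me1 (6.85% of all starts), H3K27ac (0.424%) and H3K9ac (1.69%). Over gene spans 0 of 10 were called (3.65%, 0.512% and 0.616%). At an unadjusted p under 0.05 there were 2 of 6 for H3K9ac at starts (19.2% of all starts), 1 of 10 for H3K4me1 over spans (21.7%) and 0 elsewhere (23.6% for H3K4me1 and 14.9% for H3K27ac at starts, 14.6% for H3K27ac and 15.3% for H3K9ac over spans). Camk2b had 6936 to 7231 bp of H3K9ac in controls and 6138 to 6359 bp under the cKO label (log2 change −0.18, adjusted p = 0.191). Ppp3r1 had 3065 to 4088 bp and 2785 to 2987 bp (−0.31, adjusted p = 0.213). Neither overlapped between genotypes, as with the cKO label lower in 15.3% of all starts. For H3K4me1 over the span Ppp3r1 had 29286 to 31001 bp and 24940 to 27959 bp (−0.19, adjusted p = 0.213). Camk2g had 29907 to 33500 bp and 26487 to 28911 bp (−0.15, adjusted p = 0.317), also without overlap, as in 8.64% of all genes in that direction. In the other direction Camkk1 had 8578 to 8701 bp of H3K4me1 at its start in controls and 8731 to 9011 bp under the cKO label (0.04, adjusted p = 0.781), and 5.25% of all starts lay apart that way. Camk4 had 11016 to 14824 bp and 15680 to 17607 bp of H3K27ac over its span, as apart as 4.93% of all genes. Ppp3ca had 228403 to 235077 bp and 218253 to 231232 bp of H3K4me1 (−0.03, 95% interval −0.20 to 0.13), and its H3K27ac value was 0.19 (−0.31 to 0.70). Camk2a had −0.05 (−0.22 to 0.12) in H3K4me1, −0.01 (−0.21 to 0.20) in H3K27ac and −0.02 (−0.24 to 0.20) in H3K9ac. Camk4 had 0.25 (−0.00 to 0.50) in H3K4me1 and 0.29 (−0.03 to 0.61) in H3K27ac.

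**Figure D5:**
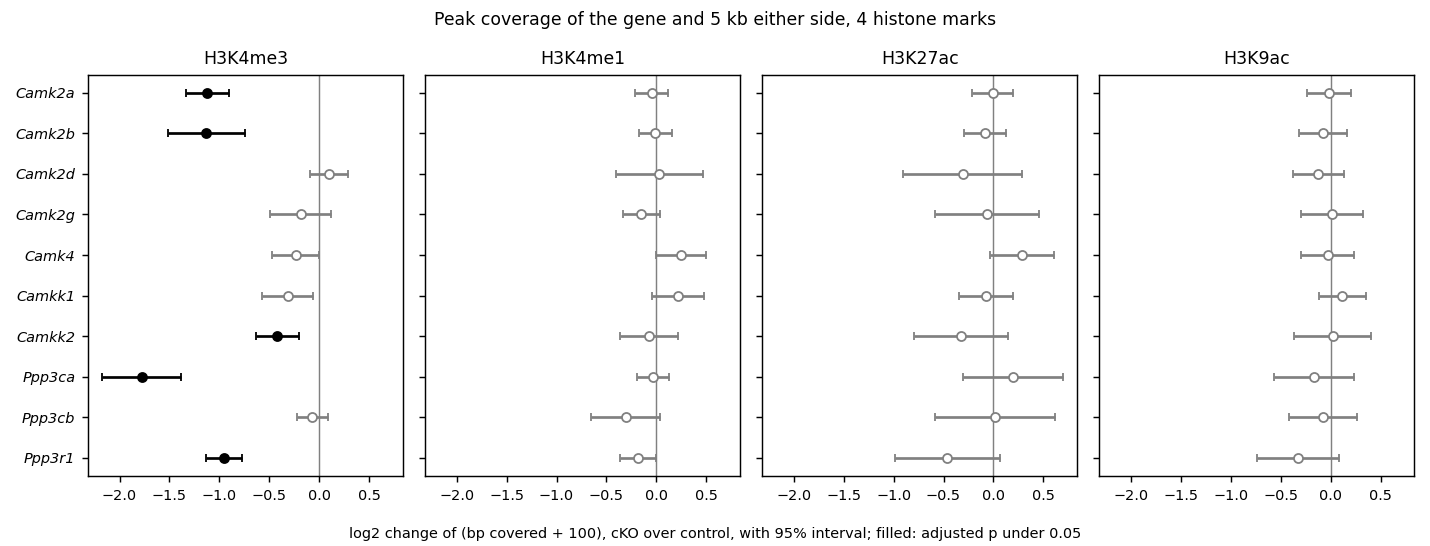
log2 change of bases covered plus 100 over each gene and 5 kb either side, libraries labelled cKO over control, with 95% intervals, for 4 marks (filled points have an adjusted p under 0.05). The 5 filled points are for H3K4me3, from −0.42 for Camkk2 to −1.78 for Ppp3ca.

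Side by side, the 4 genes with the largest H3K4me3 changes over the span were Ppp3ca, Camk2b, Camk2a and Ppp3r1, and their neuron RNA log2 fold changes were −0.19, −0.32, −0.24 and −0.06, none called with edgeR and Camk2b called with DESeq2. Ppp3cb, at −0.07 in H3K4me3, had 0.07 in neuron RNA, and Camk2d, at 0.09, had 0.08. Camkk2, called at −0.42 in H3K4me3, had −0.07 in neuron RNA. Camk4, at −0.235 in H3K4me3 and not called, had 0.15, with the signs opposed. Camkk1 and Camk2g had negative values in both and were called in neither. Of the 39 other pathway genes 18 of 38 tested fell in H3K4me3 over the span and none was called higher, beside 18.6% and 1.38% of all genes. With centred libraries 13 were called lower and 1 higher, beside 12.3% and 10.7%. The genes called in RNA were among them, with Kalrn at −0.91, Nrgn at −0.85, Pcp4 at −0.54 and Pnck at −0.40. The Pnck call was lost after centring the libraries (−0.27, adjusted p = 0.0581). Calm2, a calmodulin gene named after its value was seen, had −1.25, and none of the 3 calmodulin genes was called in either kind of RNA. Peak and RNA changes were not tested against each other.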

How the data were processed

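RNA was measured in 18 libraries and histone marks in 30. The authors deposited whole-number read counts per Ensembl gene for each RNA library. The counter and the RNA aligner are not given in the sources used here. Peak lists were called in each library with MACS, per the file headers, at a q cutoff of 0.1, with broad calling for H3K4me1 only. Each peak has a −log10 q-value from the authors' caller, as deposited, which was used only as a filter. The submitters' processing notes name mm10 and GRCm38, SAMtools and MACS2, with no role. Genotypes were compared on the counts by edgeR 4.0.16 (its quasi-likelihood test, TMM, filterByExpr, R 4.3.3), with DESeq2 1.42.0 as an alternative. Overlapping peaks were merged within a library, and log2 of covered bases plus 100 was tested with limma 3.58.1 where 3 or more libraries had a peak. Calls have a Benjamini-Hochberg adjusted p under 0.05 over all genes. Gene starts lay within 5 kb, and RefSeq tables of GRCm38.p6 gave symbols, spans and promoters. Scripts were tested on simulated data. The members and lists were chosen with earlier results of these data known. The genes named are all members, Setd1b, and those of the pathway and marker lists called in RNA, with exceptions stated. No correlated genes are named, since the edgeR fit without a replicate term called no member in whole CA RNA. Alternatives were other scalings, filters, flanks, offsets, a lane term, a replicate block and leaving out each library.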

Additional observations from a re-analysis of the deposited data

Results flagged for a closer look

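Both values concern H3K4me3 peaks in control libraries, where 1 library lay far from the other 3. Of 72 groups examined 2 held such a library, and chance alone gives about 5% of groups. The widest Camk2a peak was 14074 bp in control 4, and the nearest other control had 8485 bp. The Camk2g coverage over the gene span was 6186 bp in control 1, and the nearest other control had 7123 bp.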

How the results depend on the processing

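Every member had at least 589 reads in each RNA library. Counts of calls moved as follows. With DESeq2, 1 member (Camk2b) was called in neuron RNA, also 1 in the whole tissue, and 833 genes in neuron RNA and 79 for the difference of effects, which had 69 with no filter. Whole CA replicates 1 to 3 or 4 to 6 alone gave 207 and 224 genes. At H3K4me3 starts a 2 kb flank gave 2 members (Camkk2, Camk2b) and 2669 of 17911 starts (14.9%, with 14.3% lower). Replicates 1 to 3 alone gave 3644 genes at starts, 2750 over spans and 2601 for the widest peak. For H3K4me1 at starts the counts were 441 (2 kb) and 390 (−log10 q of at least 5), and over spans 734 (−log10 q), 1941 (offset of 1000 bp) and 3218 (centred), and centring called 1 member at starts (Camk2b) and 1 over spans (Camk4). For H3K27ac at starts they were 128 (10 kb), 33 (offset) and 50 (lane as a term), and over spans 12 (offset), 217 (centred) and 90 (lane). For H3K9ac at starts they were 99 (2 kb), 193 (10 kb), 769 (offset) and 96 (lane), and over spans 481 (−log10 q), 258 (offset), 324 (centred) and 102 (lane). The causes were not tested.

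Same-numbered libraries did not all deviate together in any data set (correlations from −0.172 to 0.313 in RNA and −0.096 to 0.141 in ChIP). In whole CA RNA, H3K4me3, H3K4me1 and H3K9ac, same-numbered libraries shared a sequencing lane across genotypes. In H3K27ac the libraries numbered 3 did not. The correlations cannot tell whether the numbers pair libraries, and the main fits had no replicate term. With a replicate block 0 members were called in neuron RNA and 2 in whole CA (Ppp3cb −0.21, adjusted p = 0.0318, and Camk2b −0.17, adjusted p = 0.0445), and 0 for the difference. Of all genes the block called 1.67% in neuron RNA, 5.46% in whole CA (3.65% lower) and 0.171% for the difference. The block gave 327 genes in neuron RNA, 839 in whole CA and 30 for the difference, 2882 for the widest H3K4me3 peak, 164 and 64 for H3K4me1 at starts and spans, and 0 for H3K27ac and H3K9ac at both. It called 3 members at H3K4me3 starts, 5 over spans and 4 for the widest peak, against 23.9%, 14.5% and 10.8% of all tested.

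The sign changed for these values. Camk2d in whole CA was −0.0119 with replicates 4 to 6. Between materials Camk2g was 0.1193 and Camk2b 0.0125 with library size only, and Camk2g 0.0168 with no filter. For H3K4me3 at starts Ppp3r1 was 0.0153 at 2 kb, and centring gave Camk2d 0.0034 and Ppp3cb 0.0724, with Ppp3cb 0.0602 over spans and 0.114 for the widest peak. Ppp3r1 was 0.0145 in H3K27ac over spans (−log10 q of at least 5) and 0.0525 in H3K9ac at starts (2 kb).

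Leaving out 1 library gave 207 to 482 genes in neuron RNA, 467 to 669 in whole CA, 18 to 32 for the difference, 1003 to 1588 and 581 to 1125 for H3K4me1 at starts and spans, 1 to 96 and 5 to 152 for H3K27ac, and 5 to 322 and 5 to 158 for H3K9ac. Members called were 3 to 5 at H3K4me3 starts, 5 to 7 over spans, 3 to 4 for the widest peak and 8 to 9 between materials. Values that changed sign ran, in neuron RNA, from −0.2745 to 0.0716 for Ppp3r1, −0.1209 to 0.228 for Camk2d, −0.1201 to 0.2467 for Ppp3cb and −0.1329 to 0.0193 for Camkk2. Aqp4 in neuron RNA ran from −0.0771 to 0.2764. Camk2d in whole CA ran from −0.0157 to 0.0375. For the difference of effects Camk2d ran from −0.118 to 0.2178, Ppp3ca from −0.0636 to 0.1257 and Ppp3r1 from −0.0322 to 0.301. The widest Ppp3cb peak ran from −0.0521 to 0.0188.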
